A study of Macaca fascicularis with 6 samples.

Results

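The cells described here are the CXCL14-positive KRT14-low cells of the cynomolgus monkey corneal epithelium 1 day after corneal injury. A cell barcode of a day 1 sample was a member when it held at least 1 raw count of CXCL14 and when KRT14 made up less than 0.2% of its counts. The rule found 402 members among 1482 barcodes of day 1 replicate 1 and 279 among 1267 of day 1 replicate 2, which makes 681 of 2749 day 1 barcodes and of 7895 barcodes in all 6 samples. The remaining 1080 and 988 barcodes of the same samples are called other barcodes.

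CXCL14 is a chemokine that many epithelia make in the resting state, unlike the chemokines that are induced by inflammation. KRT14 pairs with KRT5 to form the keratin filaments of basal epithelial cells, which sit on the basement membrane through hemidesmosomes. KRT12 and KRT3 are the keratins that mark corneal epithelium, whereas KRT4, KRT7 and KRT19 are keratins of the neighbouring conjunctiva and of simple epithelia. After a wound the remaining epithelium loosens its attachments, spreads over the bared surface and makes stress keratins, S100 alarmins, proteases and cytokines.

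Corneal epithelial cells of wild-type Macaca fascicularis were captured on a droplet platform, and their full-length cDNA was prepared with HIT-scISOseq, a method that reads whole cDNA molecules. Whether the gene counts used here come from those long molecules or from short reads is not given in the sources used here, so a count is taken only as the deposited unit. The groups are day 1 after corneal injury and day 3 after corneal injury, with uninjured cornea, labelled day 0, as the untreated state, and each has 2 samples. No treatment other than the injury is given. The labels name no animal for a sample, so a p-value covers no more than the variation from sample to sample, whatever its origin. In comparisons within samples, that is the variation of the difference between 2 groups of barcodes of a sample.

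The day 1 samples held 4928103 and 3733442 counts, and their barcodes had medians of 3258 and 2931 counts. The members had medians of 3514.5 and 3215 counts, and the other barcodes 3125.5 and 2842. Mitochondrial genes took 6.37% and 6.59% of the members' counts, against 7.59% and 7.51% in other barcodes. Scrublet, which calls barcodes that look like 2 cells, marked 2 and 8 members. No more than 4 barcodes of a sample recurred in another sample, and 1 and 0 of them were members.

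The members were chosen by their CXCL14 and KRT14 counts, so the values of these 2 genes are description only. Exactly 1 CXCL14 count made 199 and 140 barcodes members, 2 counts made 74 and 49, and 3 or more made 129 and 90. The highest CXCL14 counts of a single member were 21 and 15. The members held 85.9% and 83.0% of all CXCL14 counts of their samples. KRT14 had no count at all in 303 and 205 members. Just inside the KRT14 limit, 10 members of each sample had KRT14 between 0.15% and 0.2%, and just outside it 14 and 8 CXCL14-positive barcodes had KRT14 between 0.2% and 0.25%.

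Members made up 27.1% (exact binomial 95% interval 24.9% to 29.5%) and 22.0% (19.8% to 24.4%) of the barcodes at day 1. The same rule took 50.4% and 48.6% of barcodes in uninjured cornea and 9.49% and 7.68% at day 3. A count of 1 is found more readily in a deeper barcode, so each barcode was also thinned to 1000 counts, which left out 81 and 125 shallower barcodes at day 1. After thinning, uninjured cornea had 37.0% and 33.0%, day 1 had 15.0% and 12.2%, and day 3 had 3.23% and 2.54%. The ranking of the 3 time points was the same at both depths, and the 2 samples of a day lay nearer to each other than to any other day. With 2 samples a group an exact permutation test cannot reach 0.05, so no test is given, and the intervals cover counting error only. KRT14 itself took 0.122% and 0.128% of all counts at day 1 but 1.83% and 1.69% at day 3, so the KRT14 limit selects differently on the 2 days.

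**Figure D1:**
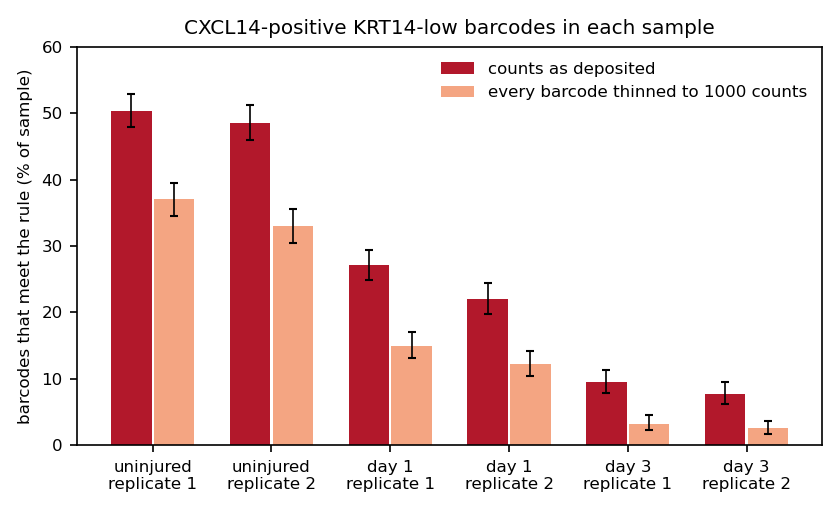
Share of barcodes with at least 1 CXCL14 count and KRT14 under 0.2% in each of the 6 samples, as deposited (dark bars) and with every barcode thinned to 1000 counts (light bars). Error bars are exact binomial 95% intervals. Day 1 lies at 27.1% and 22.0%, below both uninjured samples and above both day 3 samples.

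Most members carried the corneal keratin KRT12. At least 3 KRT12 counts were present in 364 members (90.5%) of replicate 1 and in 252 (90.3%) of replicate 2, compared with 468 and 456 other barcodes. At least 3 KRT4 counts were present in 23 members (5.72%) and 14 members (5.02%). Only 19 and 14 members had neither keratin at this level. Seen from the other side, CXCL14 was detected in 47.4% and 39.1% of barcodes with at least 3 KRT12 counts, at median depths of 3460.5 and 3255.5 counts. In barcodes with at least 3 KRT4 counts it was detected in 11.9% and 10.0%, although these were deeper, with medians of 4522 and 4214 counts. Thinned to 1000 counts, the shares were 26.2% and 22.0% for KRT12 barcodes and 4.23% and 2.33% for KRT4 barcodes. Free RNA can put CXCL14 counts into any droplet, and its part in these shares was not tested. The share in KRT12 barcodes lay above the share in KRT4 barcodes in both samples, as deposited and thinned.

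To ask what else set the members apart, counts were summed per sample over members and over other barcodes, without CXCL14 and KRT14. Sums were compared with edgeR's quasi-likelihood test in a joint fit of the samples of all days that kept each sample as a block. The estimate of the spread is therefore shared with uninjured cornea and day 3, and a gene could enter the test through its counts on any day. Levels are counts scaled to a common library size by TMM and written as CPM, a log2 change is members minus other barcodes with its standard error (SE), and a gene passed when its Benjamini-Hochberg adjusted p over all genes was under 0.05. A sum cannot tell a few barcodes with much RNA from many with little, so shares of barcodes are given where this matters. Of 11571 genes, 1737 passed (15.0%): 645 were higher in members (5.57%) and 1092 lower (9.44%). In a fit of the day 1 samples alone 1941 of 9620 genes passed, 768 higher and 1173 lower. Scaling by totals alone moved the median of all genes up by 0.11 on the log2 scale, and 57.4% of the genes that then passed were higher in members, against 37.1% with TMM. Without day 1 replicate 1 the count was 762 and without day 1 replicate 2 it was 1079, in fits where the lone day 1 sample is assumed to vary like the other groups.

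COL7A1, LAMA5 and SPARC, genes of the basement membrane and its matrix, were among the 12 leading genes that rose in members, picked by log2 change among named genes with an average level (log2 CPM) of at least 5. COL7A1, the collagen of the anchoring fibrils under the basement membrane, stood at 52.3 and 75.7 CPM in members, against 11.7 and 22.4 CPM in other barcodes. Its log2 change was 1.93 (SE 0.20, adjusted p = 1.27e-09). LAMA5, a laminin chain of basement membranes, had 41.7 and 61.6 CPM in members and 16.9 and 14 CPM in other barcodes (log2 change 1.68, SE 0.21, adjusted p = 9.04e-08). SPARC, a secreted matrix protein that binds collagen, reached 437 and 505 CPM in members, against 171 and 170 CPM. It was detected in 60.7% and 60.6% of members and in 28.8% and 26.8% of other barcodes, so its 2.74-fold difference did not come from a few cells. For these 3 genes both member sums lay above both sums of other barcodes, which their choice by log2 change nearly fixes.

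SYNE1, a giant protein that ties the nuclear envelope to the cytoskeleton, had the highest log2 change of the leading genes, 2.29 (SE 0.19, adjusted p = 2.21e-12), with 79.8 and 75.7 CPM in members and 14.3 and 17.8 CPM in other barcodes. Other genes among the leading ones were GASK1B, CAV2 (a caveolin), SLC12A7 (a potassium-chloride cotransporter), CPXM2, KIT, PRUNE2 and C12orf75. Their fold differences ran from 2.87 for C12orf75 to 4.90 for GASK1B. KIT, a receptor that melanocytes also carry, was low, with 15.5 and 18.4 CPM in members and 5.20 and 6.07 CPM in other barcodes, and it is the only gene of the melanocyte list that rose.

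**Figure D2:**
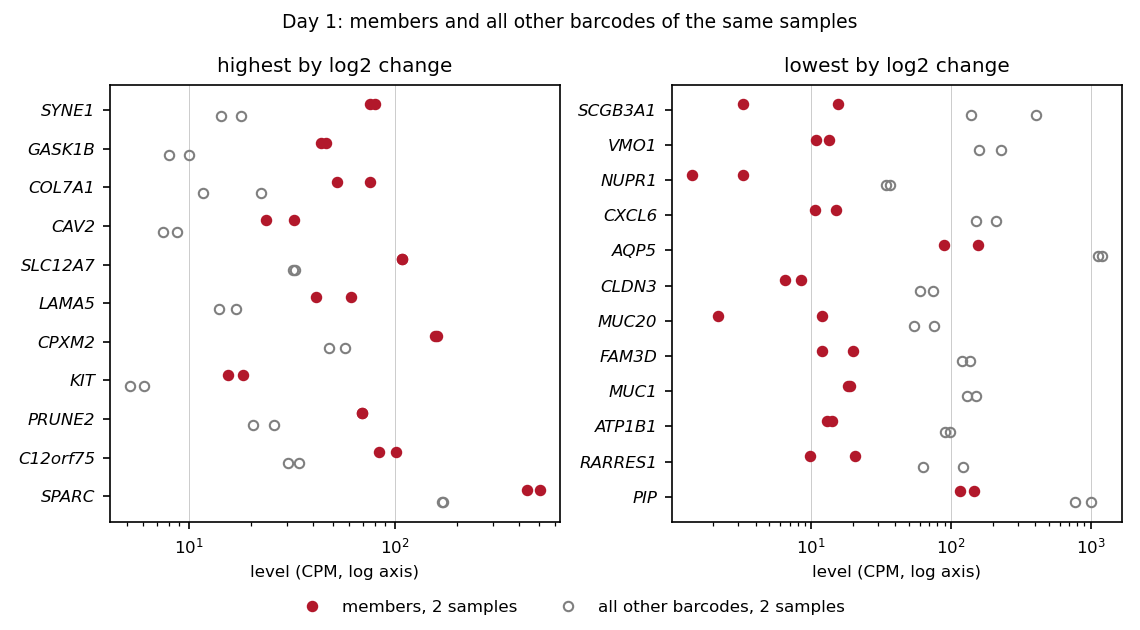
Levels in CPM (log axis) of 11 of the genes highest in members by log2 change and of the 12 genes with the lowest log2 change, for members (filled, 2 samples) and all other barcodes (open, 2 samples). For each gene shown the 2 member sums lie on the same side of both sums of other barcodes, which the choice of genes by log2 change nearly fixes.

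Of 16 genes for hemidesmosomes and basement membrane adhesion, 8 rose in members, 2 fell and 6 did not pass, with a median log2 change of 0.30 beside a median of -0.00 over all genes. Those that rose were COL7A1, LAMB4, DST, ITGA6, COL17A1, ITGB4, ITGB1 and PLEC. ITGA6 and ITGB4, the integrin chains of the hemidesmosome, and COL17A1, its transmembrane collagen, are given here although values were known when they were chosen. ITGA6 had 720 and 787 CPM in members and 393 and 364 CPM in other barcodes (log2 change 0.98, SE 0.07, adjusted p = 1.20e-14). COL17A1 had 548 and 639 CPM in members, against 287 and 318 CPM (log2 change 0.97, SE 0.07, adjusted p = 9.08e-14). DST, the plakin that links hemidesmosomes to keratin, was 2.21-fold higher. The 2 that fell were ITGA2 and ITGB6, integrin chains for collagen binding and for activation of latent TGF-beta. ITGA2 stood at 1023 and 1057 CPM in members, against 1660 and 1539 CPM in other barcodes.

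The basal and limbal progenitor list did not move as a block: of 15 genes tested, 4 rose, 5 fell and 6 did not pass. TP63, the transcription factor of stratified epithelia, had 144 and 178 CPM in members and 90.0 and 83.1 CPM in other barcodes. MOXD1, CAV1 and KRT5 were the other genes that rose. KRT15, a keratin of limbal basal cells, had 101 and 77.9 CPM in members, against 409 and 360 CPM (log2 change -2.09, SE 0.11, adjusted p = 5.69e-18). S100A2, an S100 protein found in basal layers, was 4.14-fold lower, and PENK, DLK2 and SOX9 also fell. Basal adhesion genes and KRT15 went in opposite directions in the same sums.

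Corneal genes were split as well, with 8 of 17 higher, 7 lower and 2 that did not pass. GJB6 (a connexin), TKT and ALDH3A1 (abundant corneal crystallin enzymes), KRT12, CLU, DSG1, KRT3 and KLF4 rose. ALDH3A1 had 12953 and 14861 CPM in members, against 6390 and 7239 CPM in other barcodes. KRT12 had 19012 and 19849 CPM in members and 11318 and 12890 CPM in other barcodes, a 1.61-fold difference (adjusted p = 6.94e-12). AQP5, HOPX, AQP3, KLF5, ELF3, LYPD2 and KRT24 fell. AQP5, a water channel of corneal and glandular epithelium, had 157 and 89.8 CPM in members, against 1193 and 1118 CPM, and was detected in 5.22% and 6.09% of members and in 23.0% and 21.3% of other barcodes. With totals alone the corneal list counted 8 higher and 5 lower.

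The 12 lowest genes in members, picked in the same way, included secreted proteins and mucins as well as genes of other kinds. In the mucin and goblet cell list, 2 of 5 tested genes fell (MUC20 and MUC1), TFF1 rose and 2 did not pass. Nearly all TFF1 counts of members came from a single barcode of replicate 1. VMO1, a secreted protein, had 13.4 and 10.8 CPM in members and 226 and 160 CPM in other barcodes (log2 change -4.01, SE 0.18, adjusted p = 1.43e-20). MUC1, a membrane mucin, had 19.1 and 18.4 CPM in members, against 152 and 131 CPM. CLDN3, a claudin, was 8.52-fold lower and MUC20 8.31-fold lower. FAM3D, ATP1B1, RARRES1, PIP and NUPR1 complete the 12 lowest together with AQP5, CXCL6 and SCGB3A1. SCGB3A1, a secretoglobin of secretory cells, had 15.5 and 3.24 CPM in members and 404 and 140 CPM in other barcodes, but single barcodes held 550 of its 1244 and 257 of its 369 counts among other barcodes. Of the 4 conjunctival and simple keratins tested, none of which is among the 12 lowest, 3 fell: KRT4 was 3.79-fold, KRT19 3.57-fold and KRT7 3.51-fold lower.

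All 8 tested wound keratins and alarmins fell in members, with a median log2 change of -2.14, where 9.44% of all genes fell. S100A9, a subunit of the alarmin calprotectin, had 1482 and 1318 CPM in members, against 6395 and 4939 CPM in other barcodes (log2 change -2.01, SE 0.07, adjusted p = 3.25e-24). S100A8, its partner, was 4.48-fold lower. SLPI, LCN2, PI3, KRT16, KRT17 and KRT6A were the other genes of the list. KRT16, KRT17 and KRT6A have near-identical relatives, and KRT16 and KRT17 resemble KRT14, so reads between them may have been assigned to the wrong gene. KRT6A was still abundant in members, with 2539 and 3134 CPM, against 4193 and 4451 CPM.

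Of 21 chemokine and cytokine genes, none rose in members and 14 fell, with a median log2 change of -1.23. CXCL6, a neutrophil chemokine, had 10.6 and 15.1 CPM in members and 209 and 152 CPM in other barcodes. CXCL17, a mucosal chemokine, had 132 and 148 CPM in members, against 733 and 663 CPM (log2 change -2.34, SE 0.10, adjusted p = 1.51e-21). In the NF-kB list 7 of 16 genes fell, among them ICAM1, SOD2 and ZC3H12A, whereas PTGS2, the inducible prostaglandin synthase, was 1.92-fold higher (adjusted p = 2.43e-16). Its levels were 2962 and 3032 CPM in members, against 1460 and 1665 CPM in other barcodes.

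Of 22 interferon response genes, none rose and 10 fell (with totals alone 1 rose and 9 fell). IFI27 had 145 and 101 CPM in members, against 992 and 631 CPM in other barcodes, and IFI6 was 6.24-fold lower. In the migration and matrix list 14 of 28 genes fell and 5 rose. The collagenase MMP1 had 292 and 147 CPM in members and 989 and 757 CPM in other barcodes, and SERPINB2, an inhibitor of urokinase, was 3.47-fold lower. Both HTRA1, a secreted serine protease, and TGFBI, an abundant corneal matrix protein, rose along with SPARC. TGFBI stood at 5014 and 5408 CPM in members, against 2056 and 2236 CPM (log2 change 1.28, SE 0.06, adjusted p = 1.43e-20).

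Of 11 EGF family genes 1 rose and 4 fell, where 5.57% of all genes rose and 9.44% fell. NRG1, an EGF family ligand, had 73.4 and 83.3 CPM in members and 32.2 and 31.1 CPM in other barcodes (log2 change 1.29, SE 0.17, adjusted p = 1.90e-07), while AREG and TGFA, ligands of the EGF receptor, were 1.73-fold and 1.64-fold lower. WNT7A, a ligand tied to the corneal fate, had 29.0 and 43.3 CPM in members and 5.52 and 7.97 CPM in other barcodes. It was detected in 8.46% and 12.2% of members, against 1.57% and 2.02%. Of 14 Wnt genes 4 rose (WNT7A, WNT7B, SFRP1 and DKK3) and none fell. TGFB2 was 2.59-fold higher, whereas the antagonist FST and the ligand BMP2 were 2.57-fold and 2.62-fold lower.

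Cell cycle transcripts were rare. Of 17 mitosis genes 5 rose and none fell, and of 19 DNA replication genes 2 rose and none fell, where 5.57% of all genes rose. In the comparison with CXCL14-negative KRT14-low barcodes, fitted on the day 1 samples alone, only 3 mitosis and 6 replication genes could be tested. CENPF, a kinetochore protein, had 17 and 15 counts in members, in 8 and 7 barcodes, and 5 and 10 counts in other barcodes, in 5 barcodes of each sample. CCNB1 rested on 2 and 7 counts in members and TOP2A on 15 and 6. Among oxidative stress genes, NQO1 was 2.35-fold higher in members and GPX2 5.18-fold lower.

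Markers of non-epithelial cells were low. None of the 6 tested keratocyte genes passed against all other barcodes, COL3A1 and COL5A1 had no count in members, and the list summed to 0.0220% and 0.0231% of the members' counts, against 0.0191% and 0.0185% in other barcodes. DCN, a matrix proteoglycan that keratocytes make, held 296 of the 321 and 199 of the 213 counts of this list in members, and COL1A1 had 0 and 1 counts. DCN was detected in 44.3% and 40.9% of members, against 33.0% and 28.8% of other barcodes. Immune genes summed to 0.00768% and 0.00693% in members, against 0.0229% and 0.0222%, and LYZ and CD68 fell. Melanocyte genes summed to 0.00247% and 0.00595% in members, against 0.00213% and 0.00224%. SLC4A11, a transporter of the corneal endothelium, had 2.12 and 3.24 CPM in members, against 9.09 and 8.73 CPM in other barcodes, and fell (log2 change -1.78, SE 0.53, adjusted p = 0.0156). The part of these other cells in the differences was not tested. None of the 6 vascular genes in the tables reached the test, and 4 of them, PECAM1 among them, had no count in members. Red blood cell genes were not in the tables. TFF1 passed in this comparison with a log2 change of 2.48, but 190 of its 191 counts in members came from a single barcode of replicate 1 and replicate 2 had no count.

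Since 90.5% and 90.3% of members but only 43.3% and 46.2% of other barcodes had at least 3 KRT12 counts, the comparison was repeated among the 364 and 252 members and the 468 and 456 other barcodes with at least 3 KRT12 counts, a choice made after seeing the data. Here 639 of 9968 genes passed (6.41%), with 267 higher (2.68%) and 372 lower (3.73%), and 434 of them had also passed among all barcodes. KRT12 chose these barcodes and is not read. Hemidesmosome and basement membrane genes separated more clearly: 11 of 16 rose and none fell, with a median log2 change of 0.82. LAMA3 and ITGA3 were among those that passed here and not above. ITGA2, which fell against all other barcodes, had a log2 change of 0.18 here and did not pass (adjusted p = 0.118). The keratocyte gene DCN was higher in members in the same comparison, with 202 and 220 CPM, against 86.4 and 105 CPM in other KRT12 barcodes (log2 change 1.08, adjusted p = 2.53e-17), and its part in the list's change was not tested. ITGA6 had 733 and 828 CPM in members and 349 and 324 CPM in other KRT12 barcodes, a log2 change of 1.14 (adjusted p = 6.09e-46), and COL7A1 had 54.7 and 83.1 CPM, against 10.9 and 20.1 CPM.

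Cell-to-cell junctions went the other way among KRT12 barcodes. Of 14 desmosome and adherens junction genes, none rose and 8 fell (median log2 change -0.26), and of 9 tight and gap junction genes, none rose and 7 fell (median -0.42). DSG3, a desmosomal cadherin, had 464 and 421 CPM in members, against 641 and 673 CPM (log2 change -0.63, adjusted p = 7.82e-14). CLDN4 had 1097 and 1234 CPM in members, against 1486 and 1935 CPM. KRT3 was lower in these members, at 4271 and 4376 CPM, against 5718 and 6533 CPM (log2 change -0.56, adjusted p = 2.38e-22), although it was higher when all other barcodes were the comparison. DSG1 turned round in the same way, with a log2 change of -0.26 (adjusted p = 0.00345) here and 0.46 among all barcodes.

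Proteases and inflammation also differed by comparison. MMP1 was higher in members than in other KRT12 barcodes, with 180 and 122 CPM, against 116 and 53.9 CPM (log2 change 0.75, adjusted p = 1.32e-06), the reverse of the comparison with all other barcodes. In the migration and matrix list 8 of 21 genes rose among KRT12 barcodes and 5 fell, and TIMP1, PLAU, SERPINE2 and THBS1 rose with MMP1. S100A2 turned round too, with a log2 change of 0.34 (adjusted p = 0.00505). Its levels were 355 and 336 CPM in members, against 341 and 174 CPM in other KRT12 barcodes, so replicate 1 showed little difference. Wound keratins and alarmins still fell, 5 of 6 tested, and S100A9 had 239 and 172 CPM in members, against 750 and 354 CPM in other KRT12 barcodes. PTGS2 no longer differed past the threshold (log2 change 0.09, adjusted p = 0.446). Chemokines and cytokines fell in 5 of 14 and interferon genes in 4 of 16, and none rose in either list. PIP, RARRES1 and ATP1B1, among the 12 lowest in the comparison with all barcodes, did not pass here (adjusted p = 0.487, 0.894 and 0.933).

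**Figure D3:**
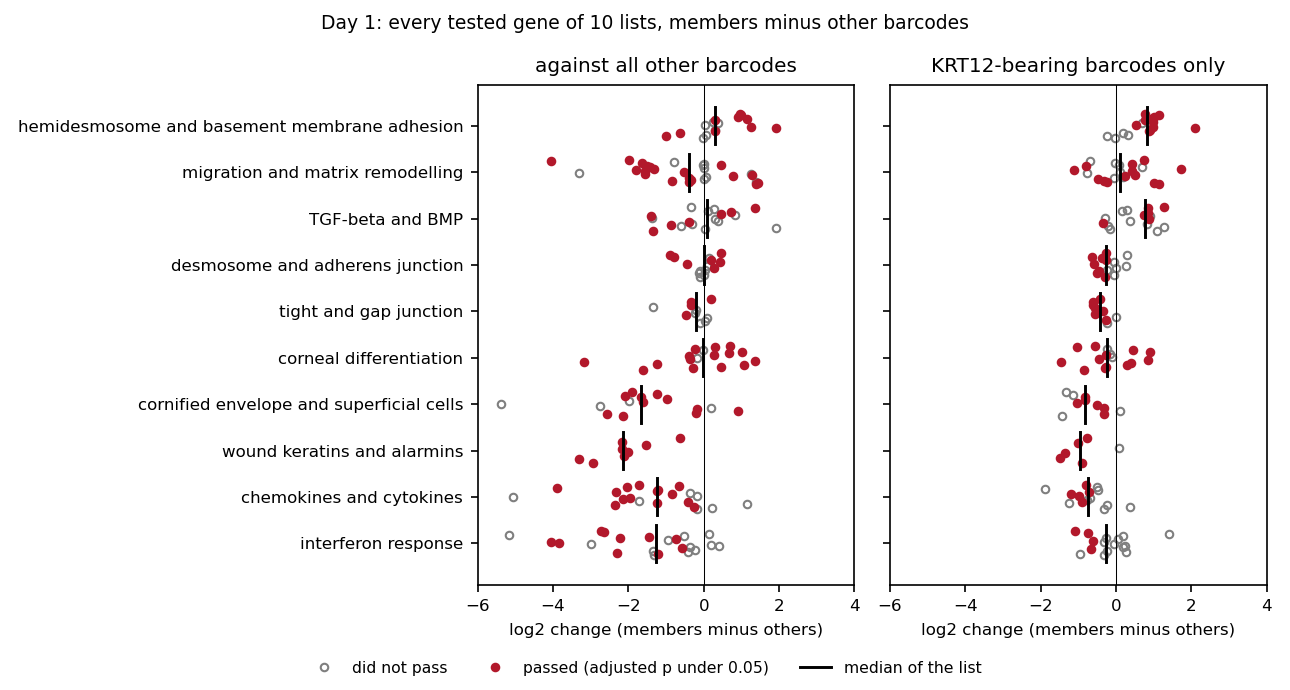
Log2 change (members minus other barcodes) of every tested gene of 10 lists at day 1, among all barcodes (left) and among barcodes with at least 3 KRT12 counts (right, without KRT12). Filled points passed the test, open points did not, and black bars are list medians. The hemidesmosome list has a median of 0.30 on the left and 0.82 on the right, and the tight and gap junction list has a median of -0.22 on the left and -0.42 on the right.

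Each condition of the rule was then held fixed in turn, in a fit of the day 1 samples alone. Against CXCL14-negative KRT14-low barcodes, 1428 of 7895 genes passed (18.1%), with 518 higher (6.56%) and 910 lower (11.5%). With totals alone 59.2% of the genes that passed were higher, against 36.3% with TMM. SYNE1 had 74.8 and 71.5 CPM in members, against 9.85 and 16.8 CPM in CXCL14-negative barcodes (log2 change 2.48, SE 0.21, edgeR adjusted p = 9.18e-13). MMP28, a protease of resting epithelium, was 4.32-fold higher, and SLC12A7 and NRG1 were also among the 5 highest. SCGB3A1, VMO1, AQP5, MUC20 and CLDN3 were the 5 lowest. Of the hemidesmosome list 11 of 16 genes rose and only ITGA2 fell (median log2 change 0.76). DCN, the 1 keratocyte gene tested here, was also higher, with 196 and 203 CPM in members, against 92.3 and 84.7 CPM in CXCL14-negative barcodes (log2 change 1.16, SE 0.11, adjusted p = 1.32e-11). Of chemokines and cytokines 14 of 17 fell and IL6R rose. Of wound keratins and alarmins 7 of 8 fell, and KRT16 did not pass (log2 change -0.51, adjusted p = 0.178). Limited to KRT12 barcodes, 630 of 6560 genes passed (9.60%), 279 higher (4.25%) and 351 lower (5.35%).

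Against CXCL14-positive KRT14-high barcodes, which hold only 272982 and 188925 counts, 1001 of 7895 genes passed (12.7%), with 439 higher (5.56%) and 562 lower (7.12%). Here the hemidesmosome list had no gene that rose, 5 that fell, ITGB6, ITGA2, LAMA3 and ITGA3 among them, and 11 that did not pass. COL17A1, ITGA6 and COL7A1 were among those 11. DCN was lower here, with 196 and 203 CPM in members, against 412 and 434 CPM in KRT14-high barcodes (log2 change -1.08, SE 0.13, adjusted p = 6.27e-08). Corneal genes rose in 10 of 17, KRT3 and KRT12 among them, and desmosome genes in 9 of 14. All 18 ribosomal protein genes were lower, with a median log2 change of -0.47. S100A2 had 746 and 541 CPM in members, against 5442 and 4533 CPM in KRT14-high barcodes, and TIMP1 had 205 and 145 CPM, against 1469 and 1257 CPM.

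CD74 and HLA-DRA, of the class II antigen presentation machinery, were among the 5 genes highest in members in that comparison. CD74 had 60 and 25 counts in members and none in CXCL14-positive KRT14-high barcodes, so it was at least 5.35-fold higher, with the floor set at 3 counts over the group. HLA-DRA had 47.0 and 35.8 CPM in members, against 3.68 and 5.05 CPM, which rest on 1 count in each sample. Neither gene passed against all other barcodes (adjusted p = 0.271 for CD74 and 0.160 for HLA-DRA), and both were lower in members than in all other KRT12 barcodes (log2 change -0.61 and -0.83). Against KRT14-high barcodes, with both groups limited to KRT12 barcodes, both stayed higher in members but did not pass (edgeR adjusted p = 0.0667 and 0.386). PGLYRP3, FRY and NBEAL2 were the other 3 of the 5 highest, and CXCL6, KRT16 and VMO1 joined S100A2 and TIMP1 as the 5 lowest. When both groups were limited to KRT12 barcodes, 69 of 6560 genes passed (1.05%), 34 higher (0.518%) and 35 lower (0.534%). The S100A2 change was then -0.32 (adjusted p = 0.730). Few KRT14-high barcodes were left in this comparison: of 394 and 277 CXCL14-positive KRT12 barcodes, 364 and 252 were members. A gene that did not pass there is therefore not read as equal in the 2 groups.

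Members also varied among themselves with their CXCL14 count. KRT14-low barcodes with 0, 1, 2 and 3 or more CXCL14 counts numbered 759, 199, 74 and 129 in replicate 1 and 700, 140, 49 and 90 in replicate 2, at median depths between 2750 and 3615 counts. In CPM of unscaled totals, COL17A1 stood at 211, 321, 481 and 866 over these classes in replicate 1 and at 236, 401, 741 and 943 in replicate 2. SPARC stood at 158, 213, 426 and 732 in replicate 1 and at 155, 262, 501 and 864 in replicate 2. Both genes were higher in each class than in the class below it, in both samples. ITGA6, COL7A1, TGFBI, NRG1 and SYNE1 showed the same order in both samples. These genes were chosen after their values were seen, and no test is given, since CXCL14 defines the classes.

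KRT4 took the opposite course, at 1391, 621, 149 and 36.7 CPM in replicate 1 and 1254, 553, 96.0 and 69.6 CPM in replicate 2. S100A9 likewise stood at 183 and 443 CPM in the class with 3 or more CXCL14 counts, against 6515 and 5297 CPM in the class with none. KRT12 was highest in the middle classes and stood at 17896 and 19149 CPM with 3 or more CXCL14 counts, against 12535 and 14765 CPM with none. KRT3 was lower at 3 or more counts (2669 and 2363 CPM) than at none (3283 and 4061 CPM). Members with a single CXCL14 count lay between the CXCL14-negative barcodes and the members with more counts for KRT4, S100A9, COL17A1 and SPARC.

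**Figure D4:**
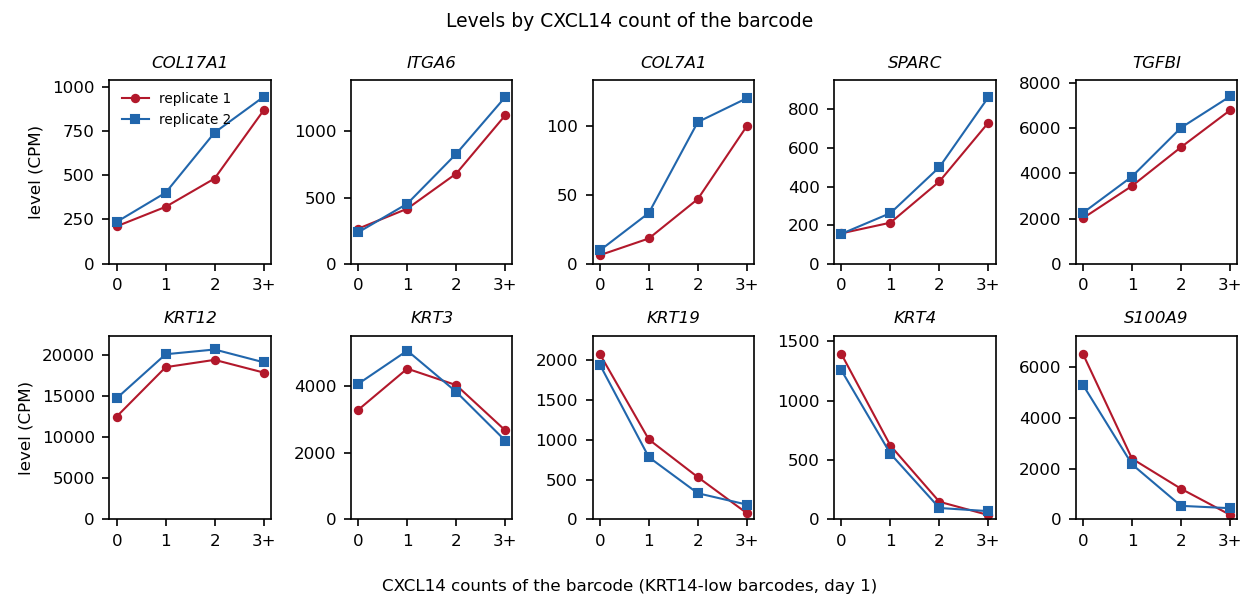
Levels in CPM of 10 genes in KRT14-low day 1 barcodes with 0, 1, 2 and 3 or more CXCL14 counts, for replicate 1 (circles) and replicate 2 (squares). COL17A1 reaches 866 and 943 CPM at 3 or more counts, against 211 and 236 CPM at none, while KRT4 lies at 36.7 and 69.6 CPM, against 1391 and 1254 CPM.

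The same rule was applied to the other days to ask whether the split it makes at day 1 is made elsewhere. The difference between day 1 and uninjured cornea in the effect of the rule was tested directly in the same edgeR fit. Of 11571 genes, 619 passed (5.35%), 186 with a more positive effect at day 1 (1.61%) and 433 with a more negative effect (3.74%). COL7A1 had a log2 effect of the rule of 1.93 at day 1 and 0.28 in uninjured cornea, a difference of 1.65 (SE 0.24, adjusted p = 8.68e-06). In 6 of 16 hemidesmosome genes (COL7A1, DST, LAMB4, ITGB4, COL17A1 and ITGA6) the effect was more positive at day 1, and in ITGA2 it was more negative. The effect on DCN was also more positive at day 1, with a difference of 1.63 (SE 0.12, adjusted p = 1.51e-12). SPARC was split in the same direction on both days, with a log2 effect of 1.45 at day 1 and 1.70 in uninjured cornea, and the difference of -0.24 (SE 0.13) did not pass.

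IFI27 was lower in members at day 1 with a log2 effect of -2.73, against 0.30 in uninjured cornea (difference -3.02, SE 0.13). CYP26B1, which degrades retinoic acid, had a rule effect of 1.09 at day 1 and 4.02 in uninjured cornea. The difference of -8.10 fitted for SCGB3A1 rests on 3 counts in uninjured barcodes that met the rule and on none in the others. With totals alone 53.2% of the genes whose effect differed were more positive at day 1, against 30.0% with TMM.

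At day 3 the rule drew a different line. The effect of the rule differed between day 1 and day 3 in 1579 of 11571 genes (13.6%), more positive at day 1 in 727 (6.28%) and more negative in 852 (7.36%). With totals alone the share of positive differences was 58.8%, against 46.0%. SPARC had 437 and 505 CPM in members at day 1 beside 171 and 170 CPM in other barcodes, whereas at day 3 barcodes that met the rule had 114 and 72.3 CPM beside 659 and 640 CPM in the rest. The difference in effect was 4.21 (SE 0.16, adjusted p = 6.00e-23). CXCL6 showed the reverse, with a difference of -5.05 (SE 0.24, adjusted p = 1.37e-19): at day 3 it had 794 and 687 CPM in barcodes that met the rule, against 305 and 378 CPM in the rest. Of the 16 hemidesmosome genes 13 had a more positive effect at day 1 and none a more negative effect. DCN differed the same way, by 1.80 (SE 0.15, adjusted p = 5.83e-12). The day 3 barcodes that met the rule numbered 104 and 82.

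**Figure D5:**
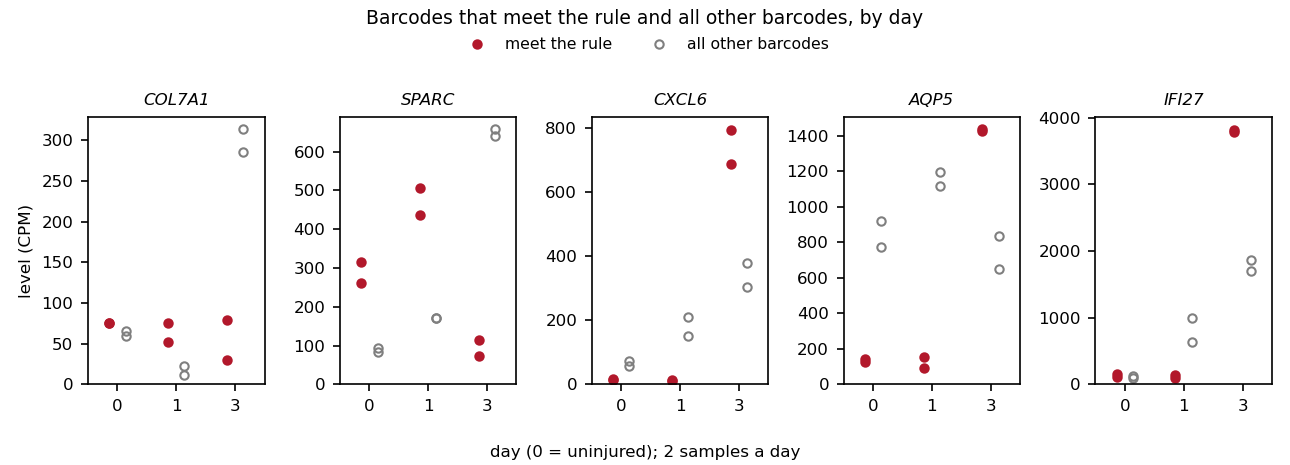
Levels in CPM of 5 genes in barcodes that met the rule (filled) and in all other barcodes (open), in 2 samples each of uninjured cornea (0), day 1 and day 3. SPARC is higher in barcodes that met the rule at days 0 and 1 and lower at day 3, and AQP5 and CXCL6 show the opposite order.

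Barcodes that met the rule were also compared across days. The fit held the sums of these barcodes and of all other barcodes of each sample, with no sample term. It treated the 2 sums of a sample as independent, so its p-values do not allow for what they share. Between day 1 and uninjured cornea 5206 of 11571 genes passed (45.0%), 2777 higher (24.0%) and 2429 lower (21.0%) at day 1. With totals alone 33.9% of the genes that passed were higher, against 53.3% with TMM. HMOX1, the stress-induced heme oxygenase, had 499 and 522 CPM at day 1, against 6.22 and 4.76 CPM in uninjured cornea (log2 change 6.53, SE 0.17, adjusted p = 7.38e-17). CYP26B1 had 562 and 478 CPM at day 1, against 9.50 and 15.2 CPM. S100A9 had 1482 and 1318 CPM at day 1, against 35.0 and 31.9 CPM, so the alarmin rose in members too, although they held less of it than the other day 1 barcodes. MMP10 and SERPINA3 were the other 2 of the 5 highest, and rest on 2 and 3 counts in uninjured cornea.

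TXNIP, a glucose-responsive arrestin, fell to 4.94 and 10.8 CPM at day 1, against 499 and 436 CPM in uninjured cornea (log2 change -5.99, SE 0.22). PCK1, a gluconeogenic enzyme, had 4.94 and 8.65 CPM at day 1, against 372 and 457 CPM, and KRT15 had 101 and 77.9 CPM, against 2139 and 2109 CPM. RERG fell as well. GPHA2, a limbal glycoprotein hormone subunit, had 2 counts over all members at day 1, against 575 in uninjured barcodes that met the rule. By list, 21 of 28 migration and matrix genes, 13 of 21 chemokine and cytokine genes and 10 of 12 glycolysis genes rose at day 1, and 9 of 12 Notch genes and 15 of 22 immediate early genes fell. Of the 16 hemidesmosome genes 10 rose and 3 fell.

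Between day 1 and day 3, 3364 of 11571 genes passed (29.1%), 1733 higher (15.0%) and 1631 lower (14.1%) at day 1, and totals alone put 60.6% of passing genes on the higher side, against 51.5%. MT3, a metallothionein, had 2548 and 1394 CPM at day 1, against 48.4 and 51.2 CPM at day 3 (log2 change 5.32, SE 0.35, adjusted p = 2.72e-10), and CA6 and NTRK2 were also among the 5 highest. PCK1 had 15 counts over the members and none at day 3, so it was at least 1.83-fold higher at day 1 with the floor of 3 counts over the group. SPINK5, a protease inhibitor of differentiating epidermis, had no count in members, against 1647 and 1356 CPM at day 3, at least 1091-fold lower at day 1. FN1, fibronectin, likewise had no count in day 1 members and was at least 70.0-fold lower in them. KRT78 and S100P were also among the 5 lowest. By list, 13 of 15 cornified envelope genes, 15 of 22 interferon genes and 7 of 8 wound keratins and alarmins were lower at day 1, and 12 of 16 hemidesmosome genes were higher.

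Isoform tables of the same samples were used to ask whether members differed in the kinds of transcripts read. In replicate 1 full-splice matches, molecules with all junctions of an annotated transcript, made up 62.1% of isoform counts in members and 62.7% in other barcodes. Incomplete matches made up 6.31% in members, against 5.76%, and molecules with a new combination of known junctions 6.19%, against 6.13%. Molecules with a new splice site made up 25.4% in both. In replicate 2, whose isoform table held 270 of the 279 members, full-splice matches made up 77.7% in members and 79.2% in other barcodes. The 2 tables name and classify isoforms differently, so shares are compared within a sample, and no difference between members and other barcodes exceeded 1.42 percentage points.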

How the data were processed

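Droplet cDNA of corneal epithelial cells was deposited as 1 gene matrix per sample, and Cell Ranger is named per the submitters' processing notes; version, aligner settings and genome build: not given in the sources used here. The deposited values are raw counts per gene and barcode, made by the authors before deposit. All 7895 barcodes were kept. Scrublet (in scanpy 1.11.5) called 62 of them doublets (0.785%), which were kept and left out in an alternative. The members and gene lists were chosen with earlier results of these data known.

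Counts were summed per sample over members and over other barcodes, without CXCL14 and KRT14. Sums were tested with edgeR 4.0.16 (R 4.3.3), using TMM scaling, a filter on low counts, the quasi-likelihood test and Benjamini-Hochberg adjustment at 0.05, with the sample as a block in comparisons within samples. DESeq2 1.42.0 was an alternative. On simulated counts for members against other barcodes (11015 genes), 65.7% of 1.5-fold, 98.5% of 2-fold and 100% of 4-fold changes were recovered, with 12 false calls (6.38%). Intervals are exact binomial (SciPy 1.17.1) and cover counting error only. Genes were named by rule: the 12 highest and 12 lowest log2 changes among genes that passed, had an average level (log2 CPM) of 5 or more and 1 sign in both samples, up to 3 genes of each list with an average of at least 3, 5 and 5 in other comparisons, and markers of other cell types. Other genes named were chosen after their values were seen. Alternatives changed the scaling, the filter, the tool, the limits of the rule, the depth and the samples, and those on KRT4, KRT12 and barcodes of 2000 to 6000 counts were added after seeing the data. Some results for single genes are not reported here.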

Additional observations from a re-analysis of the deposited data

Results flagged for a closer look

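The effect of the rule (log2, barcodes that meet it minus all others) was tested between days in the edgeR fit, and differences among the 5 highest and 5 lowest in each test are given here. Against uninjured cornea the effect at day 1 was more positive for CAV2 (difference 2.47), SULF2 (1.85), COL7A1 (1.65), DCN (1.63) and DDIT3 (1.62). It was more negative for SCGB3A1 (-8.10), IFI27 (-3.02), CYP26B1 (-2.93), NUPR1 (-2.70) and ETNPPL (-2.56). SCGB3A1 had 3 counts in uninjured barcodes that met the rule, and single barcodes held 550 of 1244 and 257 of 369 of its counts among the other day 1 barcodes.

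Against day 3 the effect at day 1 was more positive for TAGLN (4.90), CTNNAL1 (4.66), COL7A1 (4.30) and SPARC (4.21). It was more negative for CXCL6 (-5.05), MUC20 (-4.70), FAM3D (-4.23), AQP5 (-4.12) and CLDN3 (-3.99). TAGLN rests on 24 counts in day 1 members and 7 at day 3, and CTNNAL1 on 84 and 4.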

How the results depend on the processing

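Several counts of passing genes depend on the tool, on which barcodes are compared and on single samples, and the cause was not tested. With the DESeq2 Wald test the count was 725 for members against all other barcodes, 477 against CXCL14-negative KRT14-low barcodes, 571 against CXCL14-positive KRT14-high barcodes, 194 for the rule effect at day 1 minus uninjured and 835 for day 1 minus day 3. Among barcodes with at least 3 KRT12 counts these were 639, 630 and 69 for the 3 comparisons at day 1 and 97 for day 1 minus uninjured. The 69 come from a comparison with few KRT14-high barcodes. Without barcodes of at least 3 KRT4 counts, 715 passed against CXCL14-negative barcodes and 982 for day 1 minus uninjured. A test against a 1.5-fold change left 484 against all other barcodes. With at least 2 CXCL14 counts, 346 passed against CXCL14-positive KRT14-high barcodes; with CXCL14 read at 1000 counts per barcode, 280 passed there and 342 for day 1 minus uninjured, where barcodes of 2000 to 6000 counts gave 354. Leaving out each sample gave 762 to 1963 genes against all other barcodes, 344 to 771 for day 1 minus uninjured, 1007 to 1673 for day 1 minus day 3, 3403 to 5173 between day 1 and uninjured and 1954 to 3244 between day 1 and day 3. The lowest was without day 1 replicate 1 in the comparisons with all other barcodes (1079 without day 1 replicate 2) and with uninjured cornea (365 without uninjured replicate 1 and 359 without day 1 replicate 2 for the rule effect), and without day 3 replicate 1 in those with day 3. With no replicate block, that is without the sample term, 1365, 955 and 622 genes passed in the 3 comparisons at day 1, 282 for day 1 minus uninjured and 1327 for day 1 minus day 3. Replicate numbers did not pair samples across days (correlations of deviations 0.0399, -0.00564 and -0.0131), and a replicate block by number gave 5179 and 3332 genes between days. Of the genes picked by the naming rule, these passed among all and among KRT12 barcodes with opposite signs: S100A2 0.34, DSG1 -0.26, TXNIP 2.72 and MMP1 0.75. TXNIP was low there, with 1.28 and 0.719 CPM in other KRT12 barcodes. S100A2 differed little in replicate 1, with 355 and 336 CPM in members, against 341 and 174 CPM in other KRT12 barcodes. Other genes changed sign but did not pass among KRT12 barcodes, so their direction there is not read: DSG2 0.29, ARRDC3 0.35, MSN 0.24, EGR2 0.64, HES2 -0.32, FST 1.08, TP53I3 -0.050, CALR 0.026, RPS19 0.077, RPL10 0.067, CD68 0.11, MT-ATP6 0.068, MT-CYTB 0.11 and MT-COX2 0.060. Over all genes but KRT12, 433 passed both among all and among KRT12 barcodes and 26 of them turned direction, among them also KRT3 -0.56, AQP3 0.40, CLDN1 -0.42, DSC3 -0.26, ALDH1A1 -0.18, MT-ND5 0.18, MT3 0.41, SERPINE2 1.74 and TIMP1 0.42. For the single genes picked by the naming rule, over all alternatives, 3159 values kept their side of the threshold, 222 no longer passed and 15 passed anew. In 18 the sign turned for a gene that passed in the main fit or in the alternative. Direction was not compared for genes that passed in neither, which are counted among the 3159. Shares of barcodes that met the rule with at least 2 CXCL14 counts were 46.7% and 45.0% in uninjured cornea, 16.3% and 12.8% at day 1 and 4.09% and 2.78% at day 3; at 1000 counts per barcode they were 37.0% and 33.0%, 15.0% and 12.2%, and 3.23% and 2.54%. The share of molecules with a new splice site in replicate 1 members was 25.7% with at least 2 CXCL14 counts. Leaving out a sample was not run for the comparisons with CXCL14-negative and KRT14-high barcodes, which have no residual degrees of freedom then, and day 3 was not run where fewer than 50 barcodes met the rule. Depth limits genes with few counts, such as the mitosis genes.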
